A study of Mus musculus with 6 samples.

Results

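Small nucleolar RNA (snoRNA) genes were examined in C2C12 myotubes in which the microRNA miR-382-5p had been silenced. The genes were those whose symbol in the platform annotation starts with Snora, Snord or Scarna, taken from probe sets that name 1 gene, with the probe set of highest mean kept for each gene. They numbered 59 of the 18820 genes measured, of which 26 belong to the H/ACA class (Snora), 30 to the C/D class (Snord) and 3 to the Cajal body class (Scarna). The symbol rule uses no measured value, though the set was proposed with earlier results of these data known.

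C2C12 cells, 1 immortalized line of mouse myoblasts, fuse into multinucleated myotubes when serum is lowered. Every culture was kept in medium with 2% horse serum, given a locked nucleic acid (LNA) oligonucleotide (50 nM) on day 6, and taken 24 h afterwards, at day 7. The silenced group (n = 3) received a miR-382-5p inhibitor and the control group (n = 3) a negative control oligonucleotide, so both carried the transfection itself. No label states that the samples came from separate cultures. The p-values therefore describe the spread among these samples, part of which may be technical.

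SnoRNAs are short nuclear RNAs that guide chemical modification of other RNAs by base pairing. C/D snoRNAs direct methylation of ribose and H/ACA snoRNAs direct conversion of uridine to pseudouridine, mostly in ribosomal RNA in the nucleolus, while Cajal body RNAs guide the same reactions on spliceosomal RNAs. In mammals most of them lie in introns, are excised from the spliced-out intron of a host gene, and are stabilised by a class-specific set of core proteins. Hosts are often genes of ribosomal proteins and translation factors, or noncoding genes whose spliced exons encode no protein.

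The inhibited microRNA is shown because it defines the comparison. Its mature sequence in RefSeq (build GRCm38.p6, chr12:109733781-109733802, plus strand) is printed 5′ to 3′ with the seed, bases 2 to 8, in capitals.
mmu-miR-382-5p: gAAGUUGUucgugguggauucg

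Transcripts of translation genes and of many snoRNA hosts start with a run of pyrimidines, and the start sites of containing genes are shown for that feature. Of the 47 RefSeq genes that contain a member, 36 had a start in the RefSeq promoter table (GRCm38.p6). A run of at least 5 C or T bases beginning with C, with its first base within 5 bases of an annotated start, on the transcribed strand, was present in 15 of the 36 (41.7%). It was present in 7 of the 8 noncoding ones (87.5%) and 8 of the 28 protein-coding ones (28.6%), against 5718 of 27025 genes in the whole table (21.2%). Each line below covers the 10 bases before the start and the first 20 bases of the transcript, with the run in capitals.
Snhg12 (chr4:132308668-132308697, plus strand): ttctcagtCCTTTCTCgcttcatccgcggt
Gas5 (chr1:161035156-161035185, plus strand): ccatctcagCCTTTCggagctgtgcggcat
Snhg3 (chr4:132353667-132353696, minus strand): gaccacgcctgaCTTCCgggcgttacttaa
2410006H16Rik (chr11:62602867-62602896, plus strand): cgccgtCTTTCTCTgcggccatcatgggat
1110038B12Rik (chr17:34952449-34952478, minus strand): gcacacgggtCTCTTTgtgcacccgcccac
These noncoding genes contain 9 of the members, among them Snora16a, Snora44 and Snora61 in Snhg12 and Snord47 in Gas5. Gas5 had a further annotated start without the run. The remaining noncoding gene without it, Snhg1, which contains Snord22, had no such run in the window of its 1 annotated start. A run is a description of the letters and is not evidence of how these transcripts are controlled.

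Values are log2 expression levels after robust multi-array averaging (RMA), and differences are silenced minus control. The test covered the 11292 genes whose mean level exceeded 3.87, the 40th percentile. Pairs of arrays had correlations of 0.985 to 0.995. On the first principal component (46.8% of the variance), silenced replicate 1 scored -19.3 and control replicate 1 scored -15.0, while the other 4 arrays scored 7.29 to 9.96. Results are therefore also given without the arrays numbered 1. Myotube markers were high, with Acta1 at 12.27 ± 0.04 in silenced and 12.22 ± 0.04 in control arrays (SD, n = 3 each), while 0 of the 4 adipocyte markers named on the array passed the filter. The fibroblast markers Col1a1 and Col3a1 read 10.83 ± 0.13 and 11.40 ± 0.18 in silenced arrays and 10.74 ± 0.09 and 11.42 ± 0.21 in control arrays (SD, n = 3 each). Col1a2 read 11.04 ± 0.14 in both groups, and Dcn 10.63 ± 0.30 in silenced and 10.71 ± 0.39 in control arrays (SD). The remaining fibroblast markers were less bright. Pdgfra read 6.44 ± 0.27 in silenced and 6.37 ± 0.15 in control arrays (SD), and Thy1 did not pass the filter. Lum was dim, at 3.92 ± 0.45 in silenced and 4.53 ± 0.76 in control arrays (SD). It had the lowest difference of the list (-0.60; limma, unadjusted p = 0.159, adjusted p = 0.871). In all, 3 of the 6 tested fibroblast markers were lower in mean and 3 higher. Myotube markers were higher in mean for 8 of 10 (median 0.10), 3 of them at an unadjusted p under 0.05 in limma, against 2.83% of all tested genes. Undifferentiated myoblast markers were lower in mean for 3 of 5 tested (median -0.057). At that p, Id3 was lower (-0.25, limma unadjusted p = 0.0232, adjusted p = 0.871) and Pax7 higher (0.22, limma unadjusted p = 0.0461, adjusted p = 0.871). The part of these marker differences in the snoRNA values was not tested. In bulk RNA, fewer cells of a type and less RNA per cell cannot be told apart.

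Most snoRNA genes read lower in silenced arrays than in control arrays. The mean was lower for 50 of the 59 genes, against 47.3% of all 18820 genes. Of the 56 that passed the filter, 48 had a lower mean and the median difference was -0.16, against a median of 0.0089 over all 11292 tested genes. The middle 50% of the tested members lay between -0.23 and -0.062, so the typical size was small. No single member passed the adjusted threshold of 0.05 (limma, smallest adjusted p = 0.871), nor did any of the 11292 genes (0.0%, smallest adjusted p = 0.487).

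Before adjustment, 9 of the 56 tested members were lower at p under 0.05 in limma (16.1%), against 1.97% of all tested genes, and 0 were higher, against 2.83%. Without a filter on level, 9 of all 59 members were lower (15.3%), against 1.85% of all genes. All 3 silenced values lay below all 3 control values for 11 members (19.6%), against 4.87% of tested genes. The opposite arrangement occurred for 0 members, against 6.94% of tested genes. Without both arrays numbered 1, 22 of the 56 were lower at that level (39.3%), against 5.73% of tested genes. The count depended on single arrays: it was 17, 5 and 9 without silenced replicate 1, 2 and 3 in turn, where 3.94%, 1.56% and 1.48% of all tested genes were lower. It was 8, 4 and 2 without control replicate 1, 2 and 3 in turn, where the shares of all tested genes were 3.76%, 1.36% and 1.16%. In the fit blocked on replicate number, 12 members were lower (21.4%), against 4.57% of tested genes.

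**Figure D1:**
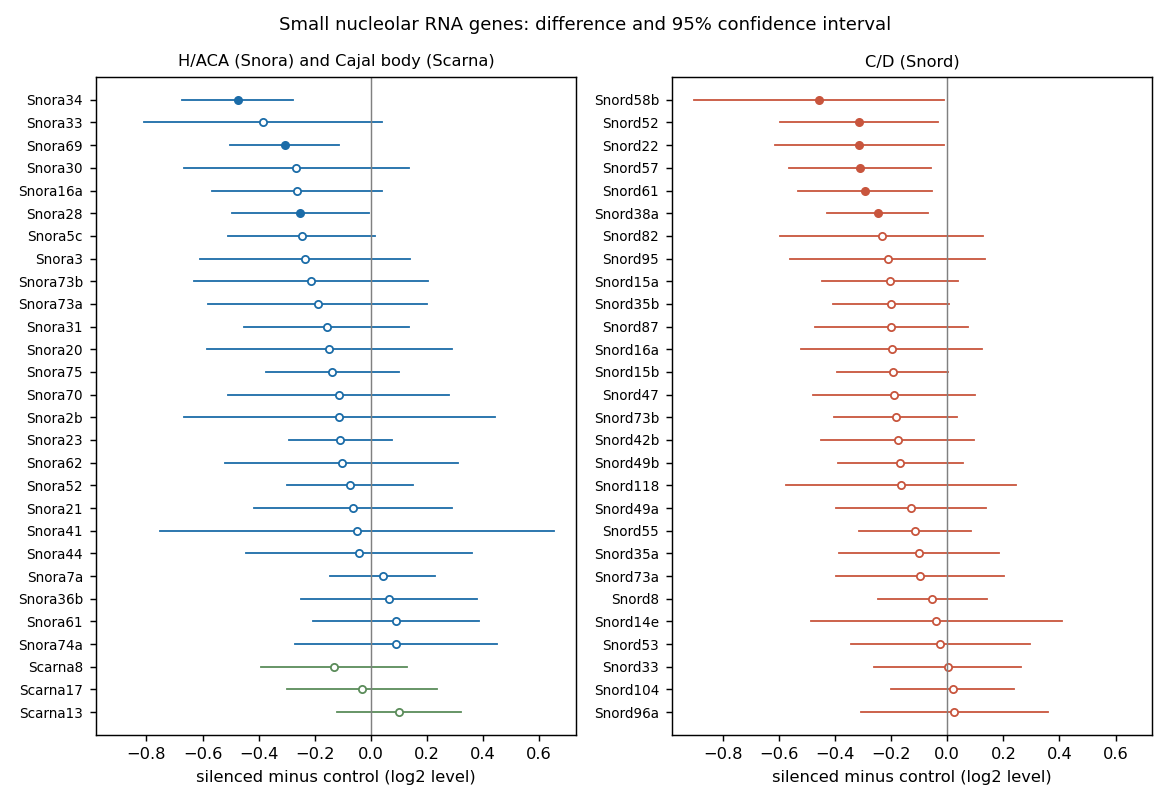
Difference in log2 level, silenced minus control, for the 56 tested snoRNA genes, with limma's 95% confidence interval; the left panel holds H/ACA genes and, below them, Cajal body genes, and the right panel C/D genes. Filled points have an unadjusted p under 0.05, and 48 of the 56 points lie left of 0, from -0.47 for Snora34 to 0.10 for Scarna13.

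Silenced arrays had the lower mean for 26 of the 30 C/D genes. Of the 28 above the filter, 25 were lower and 3 higher, with a median difference of -0.19. At an unadjusted p under 0.05, 6 were lower (21.4%), against 1.97% of all tested genes. In 7 the silenced values all lay below the control values, against 4.87% of all tested genes. The difference was below 0 in all 3 same-numbered pairs for 14 of the 28 (50.0%), against 15.8% of all tested genes.

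Snord38a read 5.50, 5.53 and 5.57 in silenced arrays and 5.71, 5.78 and 5.84 in control arrays. The groups did not overlap, and the difference was -0.25 ± 0.08 (SE; limma, unadjusted p = 0.0138, adjusted p = 0.871).

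Snord57 lies in Nop56, which encodes a core protein of the C/D particle itself. It read 8.15, 8.23 and 8.47 in silenced arrays and 8.48, 8.63 and 8.68 in control arrays, a difference of -0.31 ± 0.11 (SE; limma, unadjusted p = 0.0231, adjusted p = 0.871). The highest silenced value and the lowest control value almost met.

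Snord61, in the gene of the RNA-binding protein Rbmx, read 7.66, 7.67 and 7.82 in silenced arrays against 7.84, 8.13 and 8.05 in control arrays. Its groups did not overlap (-0.29 ± 0.10, SE; limma, unadjusted p = 0.0223, adjusted p = 0.871). Snord52, in a noncoding gene, read 4.45, 4.03 and 4.29 in silenced arrays and 4.65, 4.48 and 4.59 in control arrays (-0.31 ± 0.12, SE; limma, unadjusted p = 0.0328, adjusted p = 0.871). It is a dim gene with separate groups.

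Snord22 (U22), which is required for processing of small-subunit rRNA in Xenopus, lies in Snhg1. It read 9.14, 9.03 and 9.38 in silenced arrays and 9.30, 9.63 and 9.56 in control arrays, where the highest silenced value exceeded the lowest control value (-0.31 ± 0.13, SE; limma, unadjusted p = 0.0434, adjusted p = 0.871). Snord47, the C/D member inside Gas5, read 8.39, 8.36 and 8.57 in silenced arrays and 8.38, 8.74 and 8.75 in control arrays. Within replicate number 1 its difference was 0.0018, and within numbers 2 and 3 it was -0.39 and -0.18.

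Snord58b, Snord82, Snora33, Snora2b, Snora70, Snora23, both Snora73 genes and the members named for sharing a containing gene were chosen after their values were seen. Snord58b, in the ribosomal protein gene Rpl17, had the lowest difference of the class. It read 7.20, 7.76 and 7.79 in silenced arrays and 7.75, 8.15 and 8.22 in control arrays (-0.46 ± 0.19, SE; limma, unadjusted p = 0.0461, adjusted p = 0.871). Both arrays numbered 1 were low and the groups overlapped, but the difference was below 0 in each same-numbered pair (-0.55, -0.40 and -0.42). Blocked on replicate number, its unadjusted p in limma was 0.000742 and its adjusted p 0.464.

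The C/D genes with a higher mean had differences near 0. Snord33, one of the C/D snoRNAs of Rpl13a known from work on lipid-induced cell death, read 9.74, 9.42 and 9.44 in silenced arrays and 9.60, 9.41 and 9.58 in control arrays (0.0020, 95% confidence interval -0.26 to 0.26). Snord35a, from the same gene, differed by -0.10 (-0.39 to 0.18). Snord104 and Snord96a differed by 0.019 (-0.20 to 0.24) and 0.026 (-0.31 to 0.36). Snord118 (U8), which functions in large-subunit rRNA maturation and has its own promoter, read 5.53, 5.09 and 5.23 in silenced arrays and 5.75, 5.46 and 5.14 in control arrays. Its difference was -0.16 (-0.58 to 0.25), and its groups overlapped.

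For H/ACA genes the silenced mean was the lower for 22 of 26. Of the 25 above the filter, 21 were lower and 4 higher, with a median difference of -0.14. At an unadjusted p under 0.05, 3 were lower (12.0%), against 1.97% of all tested genes. In 4 (16.0%) the silenced values all lay below the control values, against 4.87% of all tested genes. The difference was below 0 in all 3 same-numbered pairs for 6 of the 25 (24.0%), against 15.8% of all tested genes.

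Snora34 had the smallest p of all members. It read 8.21, 8.03 and 8.21 in silenced arrays and 8.61, 8.60 and 8.66 in control arrays, 1.39-fold lower (-0.47 ± 0.08, SE; limma, unadjusted p = 0.000677, adjusted p = 0.871). The gap between the groups was larger than the spread within either. Snora2b lies with Snora34 in Kansl2, a gene of a histone acetyltransferase complex, but read 5.26, 4.65 and 4.53 in silenced arrays and 4.54, 4.98 and 5.25 in control arrays. Its difference was 0.72 within replicate number 1, against -0.33 and -0.72 within numbers 2 and 3.

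Snora69, in the ribosomal protein gene Rpl39, read 6.42, 6.37 and 6.38 in silenced arrays and 6.81, 6.65 and 6.63 in control arrays (-0.31 ± 0.08, SE; limma, unadjusted p = 0.00684, adjusted p = 0.871). Snora28, in the translation factor gene Eif5, read 6.42, 6.14 and 6.23 in silenced arrays and 6.46, 6.44 and 6.64 in control arrays (-0.25 ± 0.10, SE; limma, unadjusted p = 0.0442, adjusted p = 0.871). Neither had overlapping groups, and both were lower in all 3 pairs.

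In some H/ACA genes the silenced value was the lower within numbers 2 and 3 but not within number 1. Some C/D genes did the same, among them Snord47 and Snord82 (0.20, -0.38 and -0.52 within numbers 1, 2 and 3 for Snord82). Snora33, in Rps12, read 6.09, 5.37 and 5.68 in silenced arrays and 6.08, 5.95 and 6.27 in control arrays, so the pair numbered 1 differed by 0.0079 and the other pairs by -0.58 and -0.59. Snora70, in Rpl10, differed by 0.35 within number 1 and by -0.40 and -0.29 within numbers 2 and 3. Snora73a and Snora73b, the near-identical U17 RNAs of Snhg3 that act in rRNA processing, differed by 0.25 and 0.14 within number 1, by -0.42 and -0.44 within number 2 and by -0.40 and -0.34 within number 3. Their sequences are so alike that their probe sets may share signal.

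The H/ACA genes with a higher mean were Snora61, Snora74a, Snora7a and Snora36b, with differences of 0.090 (95% confidence interval -0.21 to 0.39), 0.090 (-0.27 to 0.45), 0.042 (-0.15 to 0.23) and 0.065 (-0.25 to 0.38). Snora36b was 1 of the dimmest genes tested, at a mean of 3.88, just above the filter, where Scarna8 (4.12) and Snord52 (4.42) came next. Just below it were Snora19 (3.58), Snord37 (3.45) and Snord85 (3.40), the 3 members not tested. Their mean differences were -0.29, 0.014 and -0.30.

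The 3 Cajal body genes showed no common direction. Scarna17 read 8.96, 9.28 and 9.21 in silenced arrays and 9.06, 9.31 and 9.17 in control arrays (-0.031, 95% confidence interval -0.30 to 0.24). Scarna13, in Snhg10, read 6.78, 6.61 and 6.64 in silenced arrays and 6.61, 6.45 and 6.67 in control arrays (0.10, -0.12 to 0.32). Scarna8, in Haus6, read 4.26, 3.92 and 3.99 in silenced arrays and 4.22, 4.26 and 4.09 in control arrays (-0.13, -0.39 to 0.13). The groups overlapped for each.

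The H/ACA and C/D classes had similar mean differences but differed in how the arrays behaved. For each array, the class level is the mean over all members of a class of the log2 value less the gene's mean over the 6 arrays. The C/D level was -0.057, -0.17 and -0.026 in silenced arrays and 0.045, 0.11 and 0.10 in control arrays, so all 3 silenced arrays lay below all 3 control arrays. The H/ACA level was 0.15, -0.22 and -0.15 in silenced arrays and 0.12, 0.011 and 0.10 in control arrays, and silenced replicate 1 was the highest of the 6. The class difference was -0.15 for H/ACA and -0.17 for C/D genes, against 0.0070 for all tested genes.

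**Figure D2:**
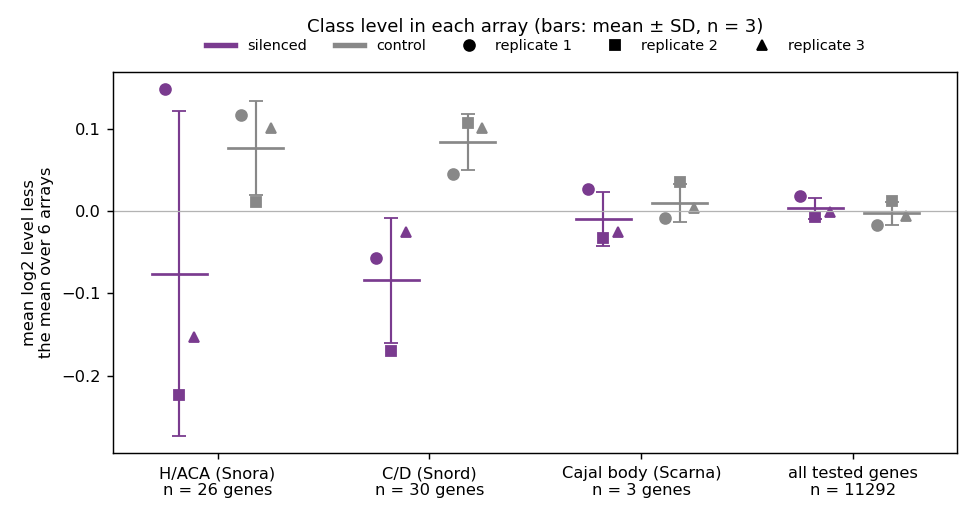
Mean log2 level of each snoRNA class in each array, after subtraction of each gene's mean over the 6 arrays, with the same for all 11292 tested genes; symbols mark replicate numbers, and horizontal lines and bars give the mean ± SD of 3 arrays. The C/D levels separate the silenced from the control arrays, whereas the H/ACA level of silenced replicate 1 (0.15) lies above every control array.

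The H/ACA level less the C/D level was 0.20, -0.053 and -0.13 in silenced arrays and 0.071, -0.096 and 0.00 in control arrays. It averaged 0.0080 ± 0.17 in silenced and -0.0080 ± 0.084 in control arrays (SD, n = 3 each), so the difference of 0.017 between groups lay well within the spread of the arrays. A score over members chosen with results known was given no test. Within replicate numbers 1, 2 and 3 this contrast differed by 0.13, 0.043 and -0.13, with no common sign.

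Silenced replicate 1 was the array in which H/ACA genes stood highest. Its value was the highest of the 3 silenced arrays for 22 of the 26 H/ACA genes (84.6%), for 10 of the 30 C/D genes (33.3%) and for 41.8% of all tested genes. In control arrays replicate 1 was highest for 12 of the 26 H/ACA genes (46.2%) and 9 of the 30 C/D genes, against 37.1% of all tested genes. Within replicate number 1, 13 of the 25 tested H/ACA and 18 of the 28 tested C/D genes were lower in the silenced array, against 43.2% of all tested genes. Within number 2 it was 20 and 26, against 52.0%, and within number 3 it was 21 and 23, against 48.0%. The H/ACA median of -0.14 became -0.27 without silenced replicate 1, -0.066 without silenced replicate 2, -0.080 without silenced replicate 3 and -0.23 without both arrays numbered 1. The C/D median stayed between -0.13 and -0.23 when any 1 array was left out and was -0.25 without both arrays numbered 1.

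**Figure D3:**
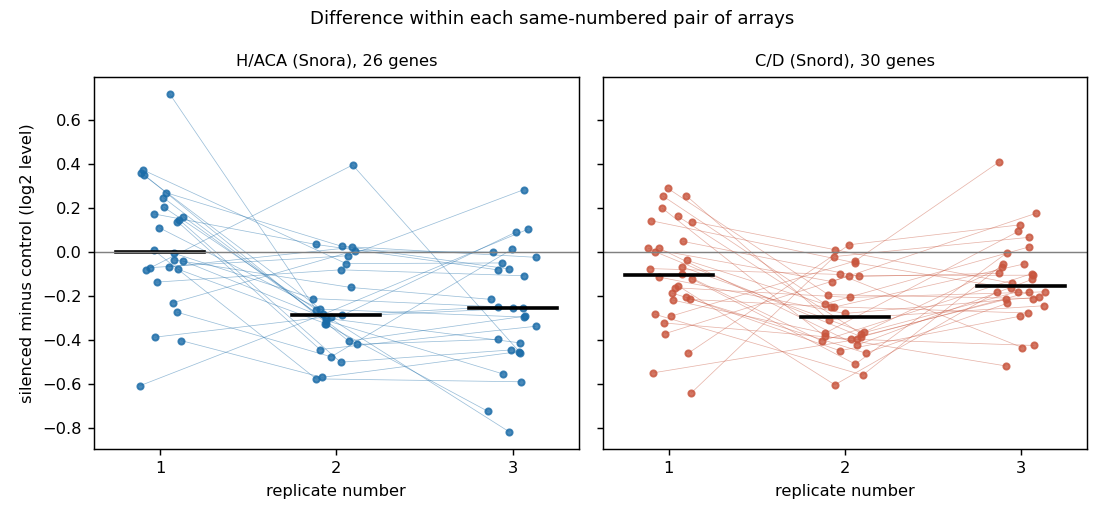
Silenced minus control difference in log2 level within each same-numbered pair of arrays, for the 26 H/ACA genes (left) and the 30 C/D genes (right); each thin line joins 1 gene across the pairs and thick bars are medians. The H/ACA points scatter around 0 within replicate number 1 and lie mostly below 0 within numbers 2 and 3, while the C/D medians lie below 0 in all 3 pairs.

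RefSeq places 58 of the 59 members inside another gene, 42 in protein-coding and 16 in noncoding genes, Snord118 being the exception. The reference table gives no strand, so containment is by position alone. The tested members inside ribosomal protein genes were lower in 18 of 20 cases (median -0.18), those inside other protein-coding genes in 17 of 19 (median -0.15) and those inside noncoding genes in 12 of 16 (median -0.15). Over all tested genes, 47.3% had a lower mean.

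The containing genes mostly had smaller differences than the snoRNAs within them. For 33 members both the snoRNA and its containing gene were tested, with 28 distinct containing genes. Of these 28, 21 were lower in mean in silenced arrays (median -0.032), while the 33 members had a median of -0.16. The member lay below its containing gene in 29 of 33 pairs. Both were lower in 24 pairs, both higher in 2, and the member was lower with the containing gene higher in 7. The levels compared within a pair could lie far apart. Over the arrays Rps12 read 12.04 to 12.17 and its member Snora33 5.37 to 6.27. The probe set kept for Rplp2 was dim, at 4.47 to 4.69, below those of all other ribosomal protein genes compared, while its member Snora52 read 8.88 to 9.16. Whether that probe set reads the Rplp2 mRNA was not tested. The pair is among the 7 with the member lower and the containing gene higher. Whether level affected the size of the differences was not tested, so the contrast does not show that snoRNAs changed apart from their containing genes. Across the 33 pairs the differences correlated weakly (Pearson r = 0.18, Spearman rho = 0.19), a description across genes of the same 6 arrays in which several members share a containing gene.

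Kansl2, which contains Snora34, read 8.70, 8.82 and 8.83 in silenced arrays and 8.93, 8.80 and 8.76 in control arrays, and its groups overlapped while those of Snora34 did not. Rpl17, which contains Snord58b, read 12.25, 12.30 and 12.36 in silenced arrays and 12.26, 12.32 and 12.41 in control arrays, a difference of -0.024 beside -0.46 for the snoRNA. Eif5 had a higher mean in silenced arrays (0.082 ± 0.134, SE) and Snora28 a lower one. Ipo7, an import receptor gene, was among the exceptions, being lower (-0.21) by more than its snoRNA Snora23 (-0.11). Its groups did not overlap (limma, unadjusted p = 0.0271, adjusted p = 0.871). Rps3a1, Rpsa and Wdr43 were likewise lower by more than Snord73a, Snora62 and Snord53. Of all 30 tested containing genes, 3 (10.0%) had every silenced value below every control value, against 4.87% of all tested genes.

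**Figure D4:**
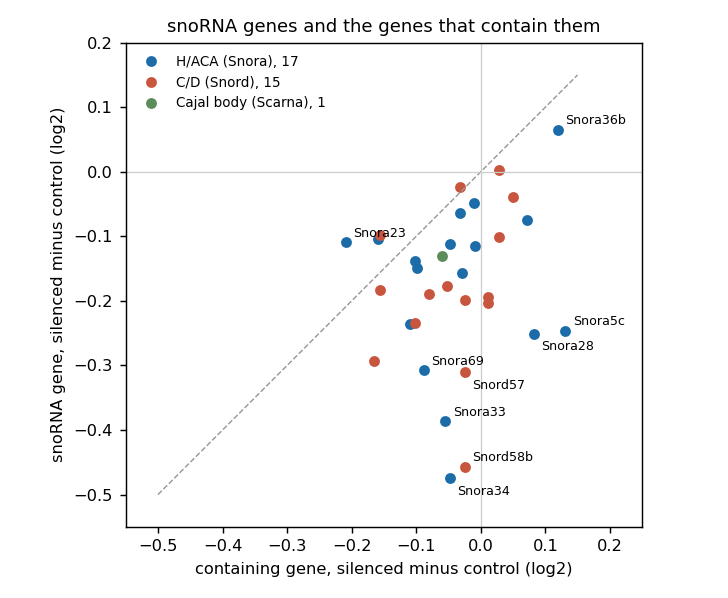
Difference in log2 level, silenced minus control, of 33 snoRNA genes (vertical) against that of the gene that contains each (horizontal); the dashed line marks equal differences. In 29 of the 33 pairs the point lies below the line, with Snora34 and Snord58b farthest from it.

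Members of 1 containing gene did not all differ in the same direction. In Snhg12, Snora16a differed by -0.26 (95% confidence interval -0.57 to 0.041), Snora44 by -0.041 (-0.44 to 0.36) and Snora61 by 0.090. In the Rack1 gene, which encodes a scaffold protein of the ribosome, Snord95 differed by -0.21 and Snord96a by 0.026. By contrast, Snord15a and Snord15b of Rps3 differed by -0.20 and -0.19, and Snord49a and Snord49b, which share a noncoding gene, by -0.13 and -0.17. The intervals of the members in 1 gene overlapped in each of these cases.

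The core protein genes of the particles did not all differ in the same direction. The mean was lower for 3 of 4 C/D core genes (median -0.0475) and 3 of 4 H/ACA core genes (median -0.135), against 47.3% of all tested genes. In limma, 0 of these few genes were lower at an unadjusted p under 0.05, against 1.97% of all tested genes. In the C/D set, Nop58 read 9.53, 9.44 and 9.21 in silenced arrays and 9.65, 9.55 and 9.60 in control arrays (-0.20 ± 0.10, SE; limma, unadjusted p = 0.0830, adjusted p = 0.871). Fbl, the methyltransferase fibrillarin, differed by 0.018 ± 0.089 (SE), Nop56 by -0.025 ± 0.101 (SE) and Snu13 by -0.070 ± 0.127 (SE). In the H/ACA set, Gar1 read 6.36, 6.57 and 6.34 in silenced arrays and 6.22, 6.17 and 6.24 in control arrays, higher by 0.21 ± 0.09 (SE; limma, unadjusted p = 0.0497, adjusted p = 0.871). The groups of Nop58 (lower) and Gar1 (higher) did not overlap, as for 4.87% of all tested genes in the lower direction and 6.94% in the higher.

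The other H/ACA core genes had lower means, with differences of -0.12 ± 0.15 for Dkc1, -0.19 ± 0.15 for Nhp2 and -0.16 ± 0.12 for Nop10 (SE). Dkc1, the pseudouridine synthase dyskerin, read 8.64, 8.12 and 8.26 in silenced arrays and 8.57, 8.31 and 8.49 in control arrays. Nhp2 read 8.12, 7.59 and 7.70 in silenced arrays and 8.12, 7.84 and 8.01 in control arrays, and Nop10 read 9.90, 9.58 and 9.53 against 9.84, 9.72 and 9.91. For all 3, silenced replicate 1 was the highest silenced array, as it was for most H/ACA snoRNA genes and for 41.8% of all tested genes. It was also the highest for Nop58 and Snu13 of the C/D set, but not for Gar1, Fbl or Nop56. No relation between core genes and snoRNA genes was tested. Of 21 genes of assembly and maturation factors, 10 were lower in mean and 11 higher, with a median of 0.010. In limma, 0 passed an unadjusted p of 0.05 in either direction, where 1.97% of all tested genes were lower and 2.83% higher, and 0 passed the adjusted threshold.

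Other short noncoding RNAs did not share one pattern. Of 76 tested genes with a microRNA symbol (Mir followed by a digit), 37 were lower in mean and 39 higher in silenced arrays, with a median of 0.014. In limma, 3 were lower at an unadjusted p under 0.05 (3.95%, against 1.97% of all tested genes). Before the filter, these symbols also took in the longer host genes Mir100hg, Mir17hg and Mir99ahg. Of 9 other small RNA genes, 7 had a lower mean (77.8%, against 47.3% of all tested genes), with a median of -0.12. The difference was below 0 in all 3 same-numbered pairs for 4 of the 9 (44.4%). That share was 35.7% for the tested snoRNA genes and 15.8% for all tested genes. Among the 9 were Terc, the telomerase RNA and itself an H/ACA RNA, and the U3 gene Rnu3a, a C/D RNA outside the symbol rule. Terc read 4.96, 4.96 and 5.08 in silenced arrays and 5.13, 5.17 and 5.46 in control arrays. Rnu3a, 1 of the 2 with a higher mean (0.028), read 6.93, 6.91 and 6.87 against 7.01, 6.62 and 7.00. The groups were separate for Terc (-0.25 ± 0.11, SE; limma, unadjusted p = 0.0511, adjusted p = 0.871) and overlapped for Rnu3a. A list of snoRNA host genes had 7 tested genes: the noncoding Gas5 and 5 Snhg genes, and the protein-coding Taf1d. Of the 7, 6 had a lower mean (85.7%, against 47.3% of all tested genes), with a median of -0.080. In limma, 0 passed an unadjusted p of 0.05 in either direction, where 1.97% of all tested genes were lower and 2.83% higher. The 1 with a higher mean was Taf1d (0.0014).

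The members were short, with RefSeq spans of 56 to 205 bases for H/ACA genes (median 119) and 53 to 148 bases for C/D genes (median 69.5). Across the 56 tested members the rank correlation of length with the difference was 0.12, and it was 0.11 over the 25 H/ACA and 0.31 over the 28 C/D genes. Column kits of the kind named in the labels recover such short RNAs poorly, and a probe set in an intron can also read unspliced or excised host RNA. Mature snoRNA and its precursor therefore cannot be told apart here, and whether recovery of short RNA differed between arrays was not tested.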

How the data were processed

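The deposited table holds log2 expression values of 35556 probe sets on 6 one-colour Affymetrix whole-transcript arrays (3 silenced, 3 control). The authors made them with RMA, per the submitters' processing notes, which name no version. RMA draws differences of dim genes toward 0. The number of arrays limits the precision, and 100 ng of RNA with an integrity number above 8.0 was labelled per sample, per the labels' protocols.

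Of 21218 probe sets naming 1 gene, 67 named a member; 13 more named a member together with another gene and were left out. Of the 8 members with several probe sets, 5 had identical values in them. All 59 members matched RefSeq (GRCm38.p6) by Entrez identifier; no build is named for the probe sets, so no member coordinates are given. A planned search for box C was not made, because no member sequence was used here.

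The 2-sided comparison used lmFit and eBayes of limma 3.58.1 (R 4.3.3), without covariates, on the 11292 genes above the 40th percentile of mean level, with Benjamini-Hochberg adjustment over them; the script was tested on simulated data. Same-numbered arrays deviated together from their group means (r of 0.55, 0.35 and 0.42 for numbers 1, 2 and 3). Each array also correlated most with the array of its own number in the other group, so the data, not the labels, support a pairing by number. Deviations within a group are not independent, so the r values alone do not show pairing for every number. A block on replicate number, other filters, repeated quantile normalization, mean probe sets, trended robust eBayes and left-out arrays were alternatives. Members and lists were chosen with earlier results of these data known, and no list was tested as a set. The pyrimidine run at start sites was chosen for description after the values were seen. Genes named by rule were the 8 tested members of smallest p in each direction, the 3 in each direction per class, members transcribed from their own promoter or lying in Gas5, Snhg1 or Rpl13a, members next to the filter, core protein genes and the genes containing the first 16; 0 members of the Snord113 to Snord116 families were named by a probe set of 1 gene. A containing gene of some members is not reported here.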

Additional observations from a re-analysis of the deposited data

How the results depend on the processing

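Under all 13 alternatives 0 genes passed limma's adjusted threshold (smallest adjusted p of any gene 0.392, of any member 0.439). Counts at an unadjusted p under 0.05 moved. Genes lower numbered 223, against 349 with no filter, 516 with the replicate number as a block, 647 without both arrays numbered 1 and 131 to 445 with 1 array left out. Genes higher numbered 319, against 485, 652 and 513 in the same order and 141 to 403 with 1 array left out. Tested members with a lower mean numbered 48 of 56, 42 to 49 with 1 array left out and 30 of 36 under the 60th percentile filter, which tests fewer genes. Members lower at that p numbered 9, 2 to 17 with 1 array left out and 22 without both arrays numbered 1. The Scarna median was -0.031, -0.0905 to 0.0505 with 1 array left out and 0.0055 without both arrays numbered 1. The H/ACA and C/D medians were below 0 under every alternative run, and the H/ACA less C/D difference ranged from -0.082 to 0.084. The replicate block changed no adjusted call.

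Of 35 named genes, 19 kept their direction under every alternative and 16 did not, in 31 of 449 values. With 1 array left out in turn, the differences ranged from -0.045 to 0.184 for Snora61, -0.077 to 0.174 for Snora74a, -0.059 to 0.189 for Snora36b, -0.034 to 0.0829 for Snord104, -0.116 to 0.16 for Snord96a and -0.0999 to 0.0571 for Snord33. They ranged from -0.0945 to 0.065 for Scarna17, -0.187 to 0.0060 for Snord35a, -0.027 to 0.0898 for Fbl, -0.0894 to 0.065 for Nop56 and -0.144 to 0.052 for Snu13. Among containing genes they ranged from -0.0826 to 0.0037 for Kansl2, -0.458 to 0.071 for Rbmx and -0.028 to 0.20 for Eif5. Without both arrays numbered 1, Snora61 differed by -0.051, Snora7a by -0.024, Snord33 by -0.066, Scarna17 by 0.0055, Snord35a by 0.078 and Kansl2 by 0.048. After repeated quantile normalization Snord104 differed by -0.0025 and Snord33 by -0.0069, and with the mean of probe sets Rpl13a differed by -0.056. Apart from fewer genes or arrays, the cause was not tested. The deposited values carry no detection call, so which dim members lay above background was not determined.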

Other observations

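Probe sets that name a snoRNA gene together with another gene were kept out of the comparisons. There were 13 of them, 12 distinct by their values, and the silenced mean was the lower in 11 of the 12, the differences having a median of -0.18 and a range of -0.35 to 0.047. All 3 silenced values lay below all 3 control values in 3 of the 12, against 4.87% of all tested genes. The lowest was the probe set of Snora24 and its host Snhg8, at 6.79, 7.11 and 7.08 in silenced arrays and 7.45, 7.23 and 7.36 in control arrays. The 1 with a higher mean was that of Snord34 and Rpl13a, at 8.94, 8.93 and 8.79 in silenced arrays and 8.87, 8.78 and 8.86 in control arrays. These signals cannot be assigned to 1 of the genes named, and they were not tested.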
